A study of Mus musculus with 16 samples.

Results

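The 10 genes described here encode the immediate early transcription factors of 3 families: the AP-1 subunits *Fos*, *Fosb*, *Fosl1*, *Jun* and *Junb*, the zinc finger factors *Egr1* and *Egr2*, and the orphan nuclear receptors *Nr4a1*, *Nr4a2* and *Nr4a3*. They were chosen by name, as AP-1, EGR and NR4A factors that respond to cAMP and growth signals, with earlier results of these data known. They make up 10 of the 25611 entries of the count table. Thyroid gland RNA of 16 female C57BL/6 mice was sequenced, in 4 groups of 4, named WT(ND) and *Glis3*-Pax8Cre(ND) on the one diet and WT(LID) and *Glis3*-Pax8Cre(LID) on the other. ND is a normal diet and LID a low-iodine diet, given for 6 days to mice that were 4 weeks old at the end (1 month in the sample labels). In *Glis3*-Pax8Cre mice, Cre recombinase expressed from the *Pax8* locus deletes exon 5 of *Glis3*, the gene of a zinc finger factor. *Pax8* is active in follicular cells and also in some cells outside the thyroid, the labels describe the controls only as WT, and all other cells of the gland keep *Glis3*.

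Immediate early genes are transcribed within minutes of a signal and need no new protein for it. FOS proteins pair with JUN proteins to form AP-1, EGR proteins bind GC-rich sites, and NR4A receptors act on DNA without a known natural ligand. In follicular cells, thyroid-stimulating hormone acts through cAMP and the factor CREB, which binds cAMP response elements (CRE), while growth factors act through MAP kinases and serum response factor, which binds CArG boxes. Iodine shortage is known to raise the secretion of thyroid-stimulating hormone by the pituitary.

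The number of read pairs counted on genes ran from 13892352 to 461077969 per mouse, so that 3 counts, the limit that a count of 0 allows, correspond to 0.00651 to 0.216 CPM, the count of a gene relative to all counts of its library. Such limits cover counting error only. *Glis3* itself ranged from 45.2 to 85.8 CPM in WT(ND) mice, from 85.8 to 105 CPM in *Glis3*-Pax8Cre(ND) mice, from 125 to 174 CPM in WT(LID) mice and from 120 to 204 CPM in *Glis3*-Pax8Cre(LID) mice. These gene-level counts cannot show the loss of 1 exon, so they do not check the genotype. The 5 follicular cell markers used (*Tg*, *Tshr*, *Pax8*, *Nkx2-1* and *Foxe1*) were above 0 in every mouse, as the label thyroid gland requires. Their sum was 201100 to 304700 CPM in WT(ND), 119600 to 178600 in *Glis3*-Pax8Cre(ND), 207400 to 314900 in WT(LID) and 79100 to 142500 in *Glis3*-Pax8Cre(LID). The sum was lower in *Glis3*-Pax8Cre than WT without overlap on each diet, but single markers moved both ways, as given below with the other cell types. The library of *Glis3*-Pax8Cre(ND) replicate 4 stood apart, with 2214 CPM summed over 6 thymocyte markers. The sum was 256 CPM in *Glis3*-Pax8Cre(LID) replicate 4, 177 in WT(LID) replicate 3, 121 in WT(ND) replicate 1 and 26.1 in WT(ND) replicate 2. The remaining mice lay between 1.38 and 7.70 CPM. Results of that group whose call or direction changes without its replicate 4 are given both ways. Fits without it still hold the other mice with raised sums. The median log2 fold change of the 6 markers in *Glis3*-Pax8Cre on LID was -2.97 with it and 4.32 without it, with no marker called. In whole glands, fewer cells of a type and less RNA per cell cannot be told apart. Nothing in the labels says how mice were housed or grouped beyond the 4 groups. The p-values judge differences between groups against the spread between these mice. An unlabelled grouping that went with genotype or diet could not be told apart from them.

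Promoter windows of 8 members were searched, not those of *Egr1* and *Fosl1*. The promoters of the NR4A genes are shown because these 3 genes carried most of the matches to the CRE core among the 8. *Fos* and *Egr2* are shown as the others of the 8 with more than 1 match. Sequences are the 250 bases before the start site, 5′ to 3′ on the strand of the gene, from RefSeq on GRCm38.p6: *Nr4a1* at chr15:101266596-101266845 (plus strand), *Nr4a2* at chr2:57124004-57124253 (minus strand), *Nr4a3* at chr4:48045055-48045304 (plus strand), *Fos* at chr12:85473640-85473889 (plus strand) and 1 of the 5 *Egr2* windows at chr10:67537619-67537868 (plus strand). Capitals mark the CRE core TGACG, read on both strands, and in *Egr2* also a CArG box.
Nr4a1: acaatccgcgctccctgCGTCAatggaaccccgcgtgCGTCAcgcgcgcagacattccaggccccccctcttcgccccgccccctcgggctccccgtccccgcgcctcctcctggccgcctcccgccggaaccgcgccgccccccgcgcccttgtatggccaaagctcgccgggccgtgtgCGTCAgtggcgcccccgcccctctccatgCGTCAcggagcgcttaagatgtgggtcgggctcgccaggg
Nr4a2: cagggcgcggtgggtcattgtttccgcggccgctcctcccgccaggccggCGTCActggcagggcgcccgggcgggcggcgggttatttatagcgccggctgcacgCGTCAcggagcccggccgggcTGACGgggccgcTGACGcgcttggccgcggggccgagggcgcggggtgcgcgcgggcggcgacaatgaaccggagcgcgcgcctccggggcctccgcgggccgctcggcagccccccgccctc
Nr4a3: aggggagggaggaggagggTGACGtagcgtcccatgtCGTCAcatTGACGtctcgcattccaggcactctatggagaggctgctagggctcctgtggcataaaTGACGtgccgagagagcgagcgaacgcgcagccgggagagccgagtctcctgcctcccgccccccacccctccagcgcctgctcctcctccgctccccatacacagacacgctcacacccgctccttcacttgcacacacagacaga
Fos: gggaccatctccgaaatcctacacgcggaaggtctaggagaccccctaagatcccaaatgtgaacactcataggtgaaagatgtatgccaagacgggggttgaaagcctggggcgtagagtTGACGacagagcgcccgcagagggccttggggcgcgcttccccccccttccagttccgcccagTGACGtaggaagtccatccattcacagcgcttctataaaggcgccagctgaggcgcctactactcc
Egr2: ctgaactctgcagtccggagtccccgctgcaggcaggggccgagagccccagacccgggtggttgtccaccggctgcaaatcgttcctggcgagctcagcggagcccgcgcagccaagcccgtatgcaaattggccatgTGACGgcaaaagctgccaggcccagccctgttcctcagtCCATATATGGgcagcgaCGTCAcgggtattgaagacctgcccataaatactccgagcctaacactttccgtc

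Windows of 250 bases before to 50 after a start site were searched for 8 of the 10 members, and the CRE core was found in 7 of them. *Egr1* and *Fosl1* were not searched, so nothing is said here about their promoters. It lay in 20.8% of all 32851 windows. *Nr4a1*, *Nr4a2* and *Nr4a3* each had 4 matches, a number reached by 0.231% of all windows, and this count of 4 was chosen after the matches were seen. *Fos* had 2 matches, at -129 and -66 bases from its start site, and 3 overlapping *Egr2* windows shared 2, at -111 and -55 bases in the window shown. *Fosb* and *Junb* had 1 match each, and the window of *Jun* had none of these 5 letters. The full CRE, TGACGTCA, was in none of the windows of these 8 members and in 1.79% of all. A CArG box (1.63% of all windows) was found in 4 of the 5 *Egr2* windows, where the 3 overlapping windows shared the same site. An EGR site, GCGGGGGCG (2.91% of all windows), was found in the windows of *Nr4a1* and *Fosb*. The AP-1 site TGANTCA (7.81% of all windows), the NR4A site AAAGGTCA (1.51%) and a second EGR site, GCGTGGGCG (0.612%), had no match in any of these 8 members, while TATAA (24.9%) was matched in *Fos*, *Junb*, *Nr4a2* and 1 *Egr2* window. A match is a description of letters and not of a bound site.

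Of the 10 members, 9 had enough counts to be tested, among 16630 genes, and *Fosl1* did not. The members' responses differed between the comparisons, as the plot of log2 fold changes shows. On LID, WT glands had higher *Fosb*, *Nr4a2* and *Nr4a3* and lower *Egr1*. In *Glis3*-Pax8Cre glands on LID, *Nr4a2* alone was called higher in the unpaired fit of all 16 mice. With replicate numbers as a block in all 16 mice, *Egr1* was called higher as well. With that block in the 8 *Glis3*-Pax8Cre mice alone, *Egr1* was called higher and *Jun* lower, and *Nr4a2* was not called. Without *Glis3*-Pax8Cre(ND) replicate 4, the unpaired fit called *Fosb*, *Egr1*, *Egr2* and *Nr4a2* higher. On ND no member was called between the genotypes, and on LID the *Glis3*-Pax8Cre glands had higher *Egr1* and lower *Jun*, *Nr4a1* and *Nr4a2* than WT glands. A gene was called changed at an adjusted p under 0.05, from the quasi-likelihood test of edgeR after Benjamini-Hochberg adjustment over those 16630 genes.

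In WT(LID) against WT(ND), 3 of 9 members were called higher and 1 lower, where 20.9% of all genes tested were called higher, 20.8% lower and 41.7% either way. The median log2 fold change of the 9 was 0.66, against -0.03 over all genes. Under a stricter rule, which asks for an adjusted p below 0.01 and more than a 2-fold change, 2 members (*Fosb* and *Nr4a3*) were called, against 12.5% of genes, and in 5 members the 4 mice of one group did not overlap those of the other, against 46.9% of genes. In *Glis3*-Pax8Cre(LID) against *Glis3*-Pax8Cre(ND), 1 member was called higher and none lower, where 13.1% of genes were higher, 12.3% lower and 25.4% either way. Without adjustment, 3 members were higher and 0 lower at a p under 0.05, against 18.6% and 19.8% of genes, and DESeq2 called the same 1. Without *Glis3*-Pax8Cre(ND) replicate 4, edgeR called 4 higher, *Fosb*, *Egr1*, *Egr2* and *Nr4a2*. Deviations of mice with the same number correlated between these groups, at 0.63 and 0.65 for replicates 3 and 4 but at 0.21 and 0.29 for replicates 1 and 2. Replicate 2 on LID was closer to another number (0.36). With the number as a block *Egr1* and *Nr4a2* were called higher. With that block in the 8 *Glis3*-Pax8Cre mice alone, an alternative chosen after the data were seen, *Egr1* was called higher and *Jun* lower, and *Nr4a2* was not called. None met the stricter rule (5% of genes), and *Nr4a2* was the 1 member without overlap (21.9% of genes).

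In *Glis3*-Pax8Cre(ND) against WT(ND), 0 of 9 members were called by edgeR, and none of the 8 for which it gave a p by DESeq2, where edgeR called 10.3% of genes higher, 9.25% lower and 19.6% either way, and 4.15% under the stricter rule. Without adjustment, 1 member (*Nr4a3*) was higher and 0 lower at a p under 0.05, against 18.2% and 15.6% of genes, and all members overlapped between the groups, where 19.5% of genes did not. Leaving out replicate 4 of *Glis3*-Pax8Cre(ND) gave 1 lower member, *Egr2*. In *Glis3*-Pax8Cre(LID) against WT(LID), 1 member was called higher and 3 lower, against 14.9% and 15.4% of genes and 30.2% either way. The median log2 fold change of the 9 was -0.60, against 0.01 over all genes. *Egr1* alone met the stricter rule (7.93% of genes), and *Egr1*, *Nr4a1* and *Nr4a2* did not overlap between the groups (35.5% of genes). The 2 comparisons within LID or within WT share the WT(LID) mice, so their calls are not independent of each other.

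The interaction, which is the log2 change on LID in *Glis3*-Pax8Cre minus that in WT, was called for *Egr1* and for 0 members in the negative direction, where 4.43% of genes were positive, 7.41% negative and 11.8% either way. None met the stricter rule (3.63% of genes). Without adjustment 2 members, *Jun* and *Nr4a2*, were negative and 1 positive at a p under 0.05 (14.5% and 12.1% of genes), and both were called by DESeq2. With *Glis3*-Pax8Cre(ND) replicate 4 left out, edgeR called *Egr1* positive and *Nr4a2* negative. In the edgeR fit of all 16 mice, a change called in one genotype and not in the other is thus not shown to differ between them for members other than *Egr1*.

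**Figure D1:**
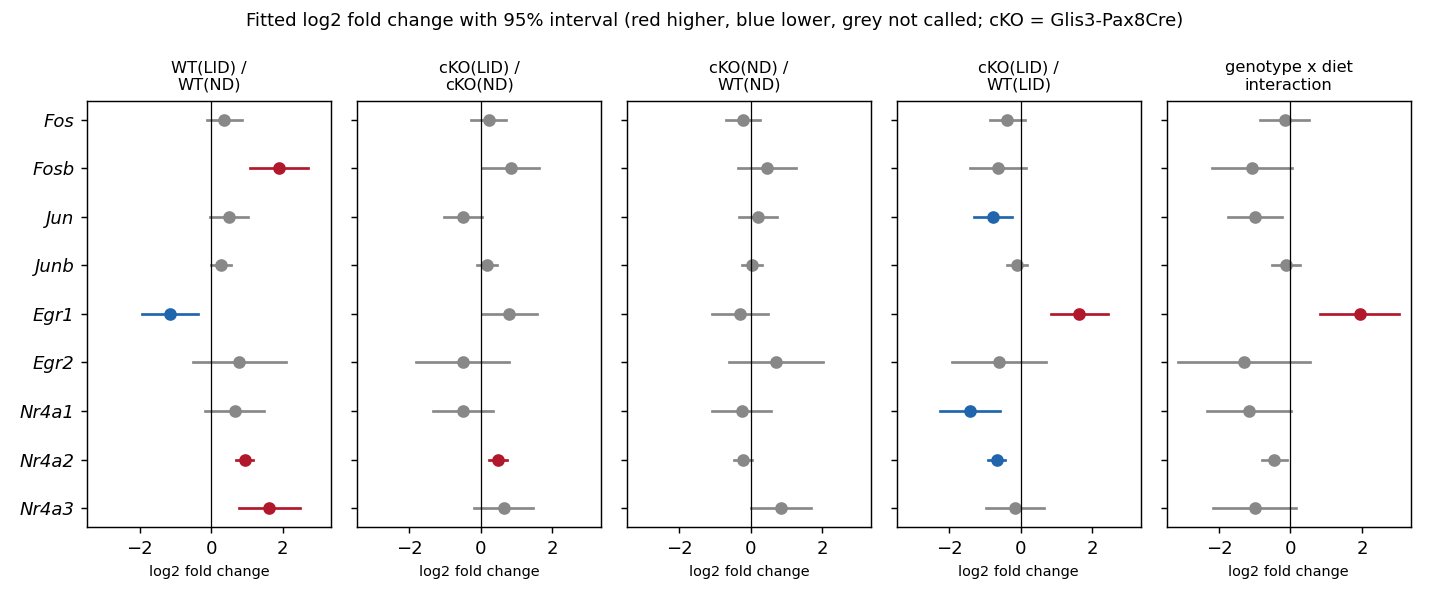
Fitted log2 fold change (horizontal axis) of the 9 tested members (vertical axis) in the 4 comparisons and the interaction, with points for the estimate and lines for its 95% interval. Red marks members called higher, blue lower and grey not called; *Egr1* lies at -1.14 for WT on LID and at 1.64 for *Glis3*-Pax8Cre(LID) against WT(LID).

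Among all members, *Jun* had the highest level per length in each group, from 23.7 ± 6.43 CPM per kb of exon in *Glis3*-Pax8Cre(LID) to 40.9 ± 11.6 in WT(LID) (mean ± SD, n = 4, as for all such values). *Junb* came next, from 14.8 ± 2.03 CPM per kb in WT(ND) to 18.1 ± 2.32 in WT(LID), and its mice overlapped those of *Jun* in *Glis3*-Pax8Cre(LID) only. In WT(ND) the order went on with *Nr4a1* (10.02 ± 3.36), *Nr4a2* (7.44 ± 0.39), *Egr1* (5.81 ± 2.01), *Fos* (3.54 ± 0.58), *Nr4a3* (1.79 ± 0.85), *Egr2* (0.46 ± 0.14), *Fosb* (0.17 ± 0.06) and *Fosl1* (0.02 ± 0.02 CPM per kb). Neighbours from *Junb* to *Fos* overlapped in this group, and each of the last 4 lay below the one before it in every mouse. *Egr1*, which was 5th in WT(ND) and *Glis3*-Pax8Cre(ND), was 7th in WT(LID) at 2.63 ± 0.26 CPM per kb and 4th in *Glis3*-Pax8Cre(LID) at 8.18 ± 2.94.

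**Figure D2:**
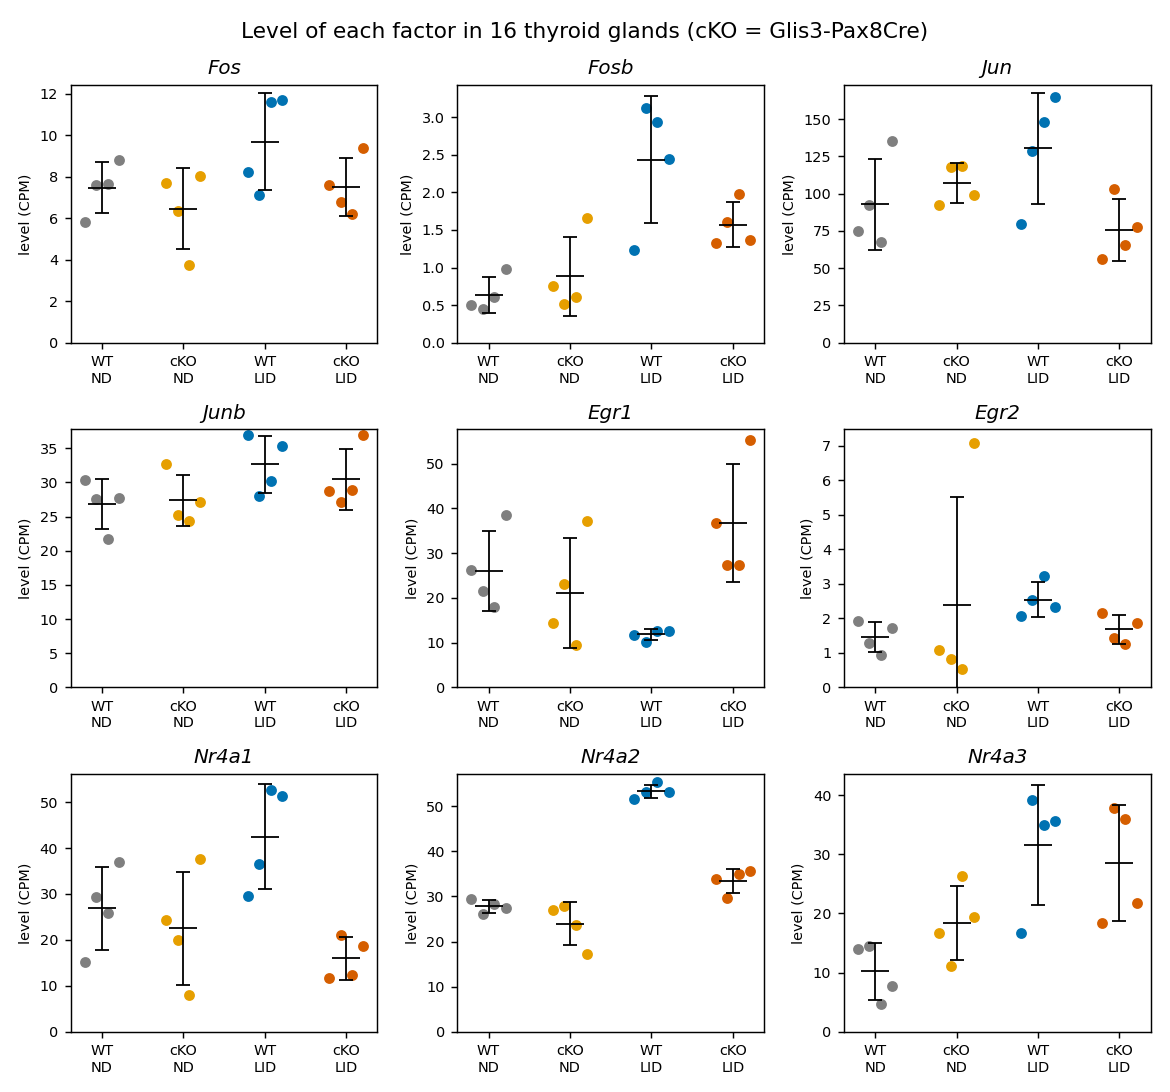
Level of each tested member in CPM (vertical axis, from 0) in the 4 groups, with 1 point per mouse in the order of replicates 1 to 4 and a black bar and whiskers for the mean and SD; cKO stands for *Glis3*-Pax8Cre. The 4 WT(LID) mice lie above all others for *Nr4a2*, at 51.7 to 55.3 CPM, and 1 *Glis3*-Pax8Cre(ND) mouse lies at 7.08 CPM for *Egr2*, where the lower whisker runs past 0.

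*Fos* (mm10, chr12:85473901-85477270) encodes c-Fos, the AP-1 subunit that gave the family its name. Its levels in replicates 1 to 4 were 5.82, 7.60, 7.66 and 8.78 CPM in the WT(ND) mice and 7.72, 6.32, 3.77 and 8.03 CPM in the *Glis3*-Pax8Cre(ND) mice. On LID they were 8.25, 7.13, 11.6 and 11.7 CPM in WT and 7.62, 6.79, 6.20 and 9.39 CPM in *Glis3*-Pax8Cre. All 4 groups overlapped, with WT(LID) replicates 3 and 4 above every other mouse. No comparison called *Fos*, with log2 fold changes of 0.37 ± 0.23 (SE) for WT on LID, 0.22 ± 0.23 for *Glis3*-Pax8Cre on LID, -0.21 ± 0.23 between the genotypes on ND and -0.37 ± 0.23 on LID. The 95% intervals of these 4 changes ran from -0.85 to 0.86, so changes within that range are not resolved. Leaving out *Glis3*-Pax8Cre(ND) replicate 4 gave 0.35 for *Glis3*-Pax8Cre on LID and -0.34 between the genotypes on ND.

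*Fosb* (chr7:19302696-19310045) encodes a FOS protein whose short form, deltaFosB, is long-lived. Its level was 0.504, 0.455, 0.608 and 0.987 CPM in the WT(ND) mice and 1.24, 3.13, 2.93 and 2.44 CPM in the WT(LID) mice, so that the groups did not overlap. In *Glis3*-Pax8Cre it was at 0.753, 0.514, 0.613 and 1.66 CPM on ND and at 1.32, 1.61, 1.98 and 1.37 CPM on LID, and the highest ND mouse was replicate 4, the library rich in thymocyte markers. On LID, *Fosb* rose in WT by 1.91 ± 0.38 log2 units (SE, adjusted p = 0.000907), a 3.75-fold difference. In *Glis3*-Pax8Cre the change was 0.83 ± 0.38 (adjusted p = 0.121), and it was 1.36 (adjusted p = 0.00861) without *Glis3*-Pax8Cre(ND) replicate 4. The genotypes differed by 0.45 ± 0.38 on ND and by -0.63 ± 0.37 on LID, neither called. Without replicate 4 the ND difference was -0.093, the opposite direction. The interaction was -1.08 ± 0.53 (adjusted p = 0.207), and -0.55 without replicate 4 of *Glis3*-Pax8Cre(ND).

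*Fosl1* (chr19:5447698-5455938), which encodes Fra-1, had 1 to 6 counts per WT(ND) mouse, 0 to 3 per *Glis3*-Pax8Cre(ND) mouse, 0 to 11 per WT(LID) mouse and 0 to 3 per *Glis3*-Pax8Cre(LID) mouse. Its highest level was 0.143 CPM, in WT(LID) replicate 1, and no difference could be detected at this depth. The gene overlaps *Ccdc85b* on the other strand, and the counting ignored strand, so the few counts cannot be assigned with certainty.

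*Jun* (chr4:95049036-95052222) encodes c-Jun, the main partner of FOS proteins. Levels were 75.2, 92.6, 67.9 and 136 CPM in the WT(ND) mice and 79.4, 129, 148 and 165 CPM in the WT(LID) mice. In *Glis3*-Pax8Cre they were 92.6, 118, 119 and 99.2 CPM on ND and 56.0, 103, 65.4 and 77.9 CPM on LID. On LID, 3 of the 4 *Glis3*-Pax8Cre mice were below all WT mice, and replicate 2, at 103 CPM, was above the lowest WT mouse. *Jun* was lower in *Glis3*-Pax8Cre(LID) than WT(LID) glands, with a log2 fold change of -0.78 ± 0.25 (SE, adjusted p = 0.0269). That call did not hold without replicate 3 or 4 of WT(LID) or replicate 1, 3 or 4 of *Glis3*-Pax8Cre(LID), where the change lay between -0.80 and -0.65 and the adjusted p between 0.0531 and 0.0848, nor with scaling by library size alone (-0.63, adjusted p = 0.0551). The diet changes were 0.49 ± 0.25 in WT (adjusted p = 0.13) and -0.50 ± 0.25 in *Glis3*-Pax8Cre (adjusted p = 0.149), the latter -0.55 without *Glis3*-Pax8Cre(ND) replicate 4 and called when only the 8 *Glis3*-Pax8Cre mice were fitted with replicate numbers as pairs (-0.54, adjusted p = 0.0297). In WT the change was called without WT(ND) replicate 4 (0.73, adjusted p = 0.0257) or WT(LID) replicate 1 (0.67, adjusted p = 0.0312). The interaction of -0.99 ± 0.35 (adjusted p = 0.082) was called without WT(ND) replicate 4 (-1.25), replicate 1 of WT(LID) (-1.19) or replicate 2 of *Glis3*-Pax8Cre(LID) (-1.18).

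*Junb* (chr8:84976909-84978748), whose product often opposes c-Jun in cell growth, varied least among the AP-1 members. It was at 30.4, 27.5, 21.7 and 27.7 CPM in the WT(ND) mice, 32.8, 25.3, 24.4 and 27.1 CPM in the *Glis3*-Pax8Cre(ND) mice, 37.0, 28.04, 30.3 and 35.3 CPM in the WT(LID) mice and 28.8, 27.1, 28.9 and 37.0 CPM in the *Glis3*-Pax8Cre(LID) mice. The 4 groups overlapped. No call was made, and the 95% intervals bound its log2 change to between 0.00 and 0.56 for WT on LID, -0.12 and 0.44 for *Glis3*-Pax8Cre on LID, -0.25 and 0.31 between genotypes on ND and -0.38 and 0.18 on LID. Leaving out WT(ND) replicate 3 or *Glis3*-Pax8Cre(ND) replicate 1 turned the ND genotype difference from 0.027 to -0.048 or -0.067.

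*Egr1* encodes a zinc finger factor that serum and growth factors are known to induce, and it was the 1 member whose interaction was called in the fit of all 16 mice with edgeR. It was at 26.2, 21.5, 17.9 and 38.5 CPM in the WT(ND) mice and at 11.7, 10.2, 12.6 and 12.7 CPM in the WT(LID) mice, all 4 of which lay below every WT(ND) mouse. In *Glis3*-Pax8Cre it was at 14.3, 23.2, 9.36 and 37.3 CPM on ND and at 36.7, 27.4, 27.3 and 55.3 CPM on LID. The *Glis3*-Pax8Cre(LID) mice were thus all above the WT(LID) mice, whereas the *Glis3*-Pax8Cre diets overlapped through *Glis3*-Pax8Cre(ND) replicate 4. *Egr1* fell by 1.14 on the log2 scale in WT on LID (SE 0.37, adjusted p = 0.0217), a 2.21-fold difference, and was 3.11-fold higher in *Glis3*-Pax8Cre(LID) than WT(LID) glands (1.64 ± 0.37, adjusted p = 0.00403). Its genotype difference on LID was called with each mouse left out in turn, between 1.37 and 1.75. The WT diet change missed the threshold without WT(ND) replicate 4 (-0.89, adjusted p = 0.0788) or WT(LID) replicate 2 (-1.07, adjusted p = 0.0595).

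In *Glis3*-Pax8Cre the *Egr1* change on LID was 0.80 ± 0.36 (adjusted p = 0.124), with an unadjusted p of 0.0462. It was called with the replicate number as a block (0.86, adjusted p = 0.0263), with that block in the 8 *Glis3*-Pax8Cre mice alone (0.91, adjusted p = 0.0237) and without *Glis3*-Pax8Cre(ND) replicate 4 (1.21, adjusted p = 0.0162). The genotypes on ND differed by -0.30 ± 0.36 (adjusted p = 0.59), and by -0.72 (adjusted p = 0.144) without that replicate. The interaction was 1.94 ± 0.52 (adjusted p = 0.025), with the change on LID negative in WT and positive in *Glis3*-Pax8Cre. It missed the threshold without WT(ND) replicate 4 (1.68, adjusted p = 0.0547), replicate 2 of WT(LID) (1.86, adjusted p = 0.0557) or replicate 4 of *Glis3*-Pax8Cre(LID) (1.67, adjusted p = 0.0524), and it was called in every other setting tried apart from the stricter rule.

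*Egr2* (chr10:67537869-67542188), also called Krox20, is known for its part in myelination and in T cell tolerance. It was at 1.92, 1.28, 0.947 and 1.72 CPM in the WT(ND) mice, at 2.06, 2.54, 3.24 and 2.34 CPM in the WT(LID) mice and at 2.16, 1.42, 1.26 and 1.86 CPM in the *Glis3*-Pax8Cre(LID) mice. In *Glis3*-Pax8Cre(ND) it was at 1.07, 0.823 and 0.523 CPM in replicates 1 to 3 and at 7.08 CPM in replicate 4, so that 1 library held the highest level of all 16 mice and the other 3 held 3 of the 4 lowest. The plot of *Egr2* against the thymocyte markers shows that library at the far end of both axes. All 6 thymocyte markers were above 0 in it, with a sum of 2214 CPM against 5.96 to 7.70 CPM in the other mice of its group, and their part in the *Egr2* level was not tested.

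Because all mice shared 1 estimate of the spread, that library widened the error of *Egr2* in every comparison, to between 0.61 and 0.87 on the log2 scale, and no comparison called *Egr2*. With it left out, *Egr2* was higher by 0.80 in WT on LID (adjusted p = 0.0194), where the groups do not overlap, higher by 1.10 in *Glis3*-Pax8Cre on LID (adjusted p = 0.0138) and lower in *Glis3*-Pax8Cre(ND) than in WT(ND) (-0.91, adjusted p = 0.0452). With all 16 mice these changes were 0.79, -0.52 and 0.70, so that the last 2 were reversed. The WT change was also called when only the 8 WT mice were fitted (0.79, adjusted p = 0.022). Between the genotypes on LID, *Egr2* differed by -0.60 ± 0.61, and the interaction turned from -1.31 ± 0.87 to 0.30 without the library.

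**Figure D3:**
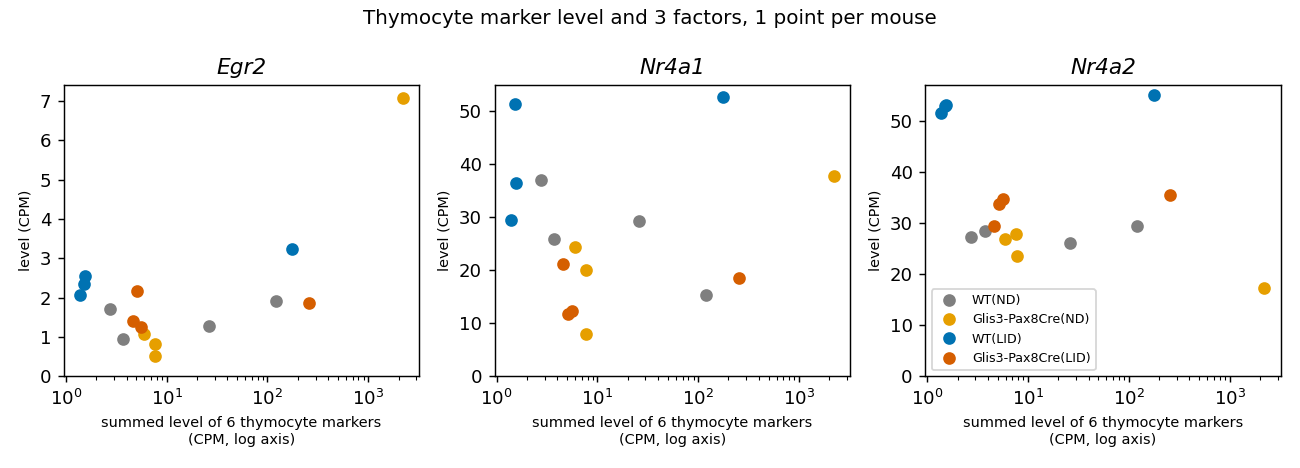
Levels in CPM of *Egr2*, *Nr4a1* and *Nr4a2* (vertical axes, from 0) against the summed level of 6 thymocyte markers in CPM (horizontal axes, log scale), with 1 point per mouse coloured by group. The mouse at 2214 CPM of markers is the highest of 16 for *Egr2*, at 7.08 CPM, and the lowest for *Nr4a2*, at 17.3 CPM.

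*Nr4a1* (chr15:101266846-101274794) encodes Nur77, which hormones that raise cAMP are known to induce. It was at 15.3, 29.3, 25.8 and 36.9 CPM in the WT(ND) mice and at 29.6, 36.4, 52.7 and 51.3 CPM in the WT(LID) mice. In *Glis3*-Pax8Cre it was at 24.3, 20.01, 7.91 and 37.7 CPM on ND and at 11.7, 21.2, 12.4 and 18.6 CPM on LID. Each *Glis3*-Pax8Cre(LID) mouse was below each WT(LID) mouse, and the other pairs of groups within a diet or genotype overlapped. *Nr4a1* was 2.66-fold lower in *Glis3*-Pax8Cre(LID) than WT(LID) glands (-1.41 ± 0.39 on the log2 scale, SE, adjusted p = 0.0145), and this call was made with each mouse left out, between -1.58 and -1.29. The diet changes were 0.66 ± 0.39 in WT (adjusted p = 0.191) and -0.49 ± 0.39 in *Glis3*-Pax8Cre (adjusted p = 0.376), and the latter was -0.12 without *Glis3*-Pax8Cre(ND) replicate 4. Their difference, the interaction of -1.15 ± 0.55 (adjusted p = 0.199), was called only without *Glis3*-Pax8Cre(ND) replicate 3, the lowest of its group (-1.44, adjusted p = 0.0493). That replicate also turned the ND genotype difference, from -0.26 to 0.025 without it.

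*Nr4a2* (chr2:57107226-57124003) encodes Nurr1, best known from dopamine neurons, and was the member with the most even levels. It was at 29.5, 26.1, 28.4 and 27.4 CPM in the WT(ND) mice and at 51.7, 53.2, 55.3 and 53.1 CPM in the WT(LID) mice. In *Glis3*-Pax8Cre it was at 27.0, 27.9, 23.6 and 17.3 CPM on ND and at 33.8, 29.6, 34.9 and 35.6 CPM on LID. Within each genotype the LID mice were all above the ND mice, and on LID all *Glis3*-Pax8Cre mice were below all WT mice. *Nr4a2* rose 1.92-fold in WT on LID (0.94 ± 0.12, adjusted p = 1.6e-05) and was 1.59-fold lower in *Glis3*-Pax8Cre(LID) than WT(LID) glands (-0.67 ± 0.12, adjusted p = 0.000416), and both calls held under all alternatives with the threshold of 0.05. In *Glis3*-Pax8Cre it rose 1.40-fold on LID (0.48 ± 0.12, adjusted p = 0.00731), a call that was not made with only the 8 *Glis3*-Pax8Cre mice fitted (0.47, adjusted p = 0.0695) or with the replicate block in those 8 mice (0.49, adjusted p = 0.0736). On ND the genotypes differed by -0.22 ± 0.12 (adjusted p = 0.203), and without *Glis3*-Pax8Cre(ND) replicate 4 by -0.081, with a rise of 0.35 (adjusted p = 0.00405) in *Glis3*-Pax8Cre on LID. The interaction was -0.45 ± 0.16 (adjusted p = 0.0852), and without *Glis3*-Pax8Cre(ND) replicate 4 it was -0.60 (adjusted p = 0.00131).

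*Nr4a3* (chr4:48045305-48086446), which encodes Nor-1, was at 14.1, 14.4, 4.62 and 7.72 CPM in the WT(ND) mice and at 16.7, 39.2, 34.9 and 35.6 CPM in the WT(LID) mice. The groups did not overlap, although WT(LID) replicate 1 lay well below the other 3. In *Glis3*-Pax8Cre it was at 16.6, 11.1, 26.3 and 19.4 CPM on ND and at 18.4, 37.8, 35.9 and 21.7 CPM on LID, with overlap. *Nr4a3* rose 3.10-fold in WT on LID (1.63 ± 0.39, adjusted p = 0.00416), and the change was between 1.40 and 1.85 with each mouse left out. In *Glis3*-Pax8Cre the change was 0.63 ± 0.39 (adjusted p = 0.245), and the interaction was -0.9999 ± 0.54 (adjusted p = 0.263). On ND it was 0.85 ± 0.39 higher in *Glis3*-Pax8Cre (unadjusted p = 0.0459, adjusted p = 0.14), or 0.83 without *Glis3*-Pax8Cre(ND) replicate 4, and on LID the difference was -0.15 ± 0.38, which turned to 0.010 without *Glis3*-Pax8Cre(LID) replicate 1.

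Most members varied between mice of the same group more than other genes did. The within-group SD on the log2 scale was 0.21 for the median gene, and 7 of the 9 tested members exceeded it: *Egr2* (0.88), *Nr4a1* (0.62), *Nr4a3* (0.61), *Egr1* (0.55), *Fosb* (0.55), *Jun* (0.38) and *Fos* (0.36). These SDs were above those of 73.5% to 95.3% of genes, while *Junb* (0.20) and *Nr4a2* (0.17) were above 45.1% and 38.1%, or 72.6% and 61% of the 500 genes nearest in mean level. By the same measure *Nr4a1*, *Egr1*, *Nr4a3* and *Jun* were above 98.0%, 97.6%, 97.4% and 97.2%, and *Egr2*, *Fosb* and *Fos* above 92.6%, 78.4% and 78.2%. The mice at the ends were often the same for several members. WT(ND) replicate 4, the most deeply sequenced library, was the highest of its group for *Fos*, *Fosb*, *Jun*, *Egr1* and *Nr4a1*, and WT(ND) replicate 3 the lowest for 5 members. *Glis3*-Pax8Cre(ND) replicate 4 was the highest for *Fos*, *Fosb*, *Egr1*, *Egr2* and *Nr4a1*, and *Glis3*-Pax8Cre(ND) replicate 3 the lowest for *Fos*, *Junb*, *Egr1*, *Egr2* and *Nr4a1*. WT(LID) replicate 1 was the lowest of its group for 6 members, including all NR4A genes.

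As a measure of likeness with no test, deviations of log2 CPM from the group means were correlated over the 16 mice among 11668 genes at a mean of 5 CPM or more. For *Fos* the 5 nearest genes outside the members were *Pard6g* (r = 0.80), *Socs3* (0.79), *Eef2k* (0.79), *Pax1* (0.78) and *Fbxw7* (0.77). For *Nr4a1* they were *Sema4a* (0.87), *Map2k5* (0.86), *Mfng* (0.85), *Mndal* (0.83) and *Ehbp1l1* (0.81). The points share libraries and depth, and r is the highest of many. *Socs3*, an inhibitor of cytokine signalling, is itself an immediate early gene.

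Related genes were summarised in lists by role, whose counts stand against the shares of all genes called: 20.9% higher and 20.8% lower in WT on LID, 13.1% and 12.3% in *Glis3*-Pax8Cre on LID, 10.3% and 9.25% between the genotypes on ND, 14.9% and 15.4% on LID, and 4.43% and 7.41% for the interaction. The lists were chosen with earlier results of these data known, so their counts are a description and not a test. Counts and medians without *Glis3*-Pax8Cre(ND) replicate 4, chosen after the data were seen, follow where that library enters. Of 9 other AP-1 and ATF factors, 4 were higher and 3 lower in WT on LID (median 0.12). *Atf3*, a stress-induced repressor of the family, rose from 2.15 ± 0.49 to 9.04 ± 4.14 CPM (2.07 on the log2 scale, adjusted p = 0.000167). In *Glis3*-Pax8Cre(LID) it was at 2.59 ± 0.41 CPM, lower than in WT(LID), with a log2 fold change of -1.81 (adjusted p = 0.000693), and *Jdp2*, a repressor that pairs with c-Jun, was lower too (-0.58, adjusted p = 0.035) in a list with 1 gene higher and 2 lower (median 0.04). Both had a negative interaction, of -1.93 and -0.98 (adjusted p = 0.0134 and 0.0324), and of -1.81 and -1.11 without that library (adjusted p = 0.0227 and 0.0133). In *Glis3*-Pax8Cre on LID 1 of the 9 was higher (median 0.02), or 1 higher and 1 lower (median -0.052) without the library. Between the genotypes on ND none was called (median 0.24), or 1 higher (median 0.28).

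Of the other EGR factors and NAB corepressors, 3 of 4 were tested. *Egr3* was lower in *Glis3*-Pax8Cre(LID) than WT(LID) glands, at 0.605 ± 0.163 against 1.86 ± 0.436 CPM (-1.62 on the log2 scale, adjusted p = 0.0338), the opposite direction to *Egr1*, and the list had no other call. Without the library, 1 of the 3 was higher in *Glis3*-Pax8Cre on LID and 1 lower in *Glis3*-Pax8Cre on ND. Of the 12 upstream factors (SRF, the TCF partners of SRF, and CREB with its coactivators), 3 were higher and 1 lower in WT on LID (median 0.14), and 3 were lower in *Glis3*-Pax8Cre(LID) than WT(LID) glands (median -0.01). These 3 were *Srf* (-0.47, adjusted p = 0.0148), the TCF gene *Elk3* (-0.53, adjusted p = 0.0281) and *Crtc1*, which encodes a CREB coactivator (-0.56, adjusted p = 8.67e-05). In *Glis3*-Pax8Cre on LID 1 was higher and 1 lower (median -0.14), and on ND 2 were higher in *Glis3*-Pax8Cre (median 0.18). Without the library these were 1 and 0 (median -0.11) and 1 higher (median 0.088).

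Of 30 other immediate early genes, 10 were higher and 6 lower in WT on LID (median 0.26), the latter share close to that of all genes. *Cyr61*, a matricellular protein gene, rose by 2.13 (adjusted p = 0.000477), *Ctgf* by 2.01 (adjusted p = 0.000389), the kinase gene *Sgk1* by 1.91 (adjusted p = 8.43e-05) and *Maff* by 1.604 (adjusted p = 6.34e-06), while *Gadd45b* changed by -1.16 (adjusted p = 0.000476). In *Glis3*-Pax8Cre on LID 4 were higher and 3 lower (median -0.01), with *Ctgf* again higher, by 2.55 (adjusted p = 0.000198), or 2.497 (adjusted p = 0.000672) without the library, where 5 were higher and 4 lower (median 0.0042). Between the genotypes on LID, 1 was higher and 11 lower (median -0.25). *Cyr61* (-1.64, adjusted p = 0.0042), the vascular and epithelial factors *Klf2* (-1.36, adjusted p = 0.000131) and *Klf4* (-1.36, adjusted p = 3.04e-06), and *Ier3* (-0.94, adjusted p = 0.000661) were lower in *Glis3*-Pax8Cre(LID), and *Gadd45g* was higher (1.52, adjusted p = 0.000551). On ND 3 were higher and 3 lower in *Glis3*-Pax8Cre (median 0.06), or 2 and 5 without the library (median -0.028).

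Inhibitors that MAP kinase signalling induces showed 6 of 14 genes higher and 2 lower in WT on LID (median 0.56). The phosphatase genes *Dusp1* (28.6 ± 8.57 to 124 ± 25.4 CPM, 2.11 on the log2 scale, adjusted p = 2.03e-05), *Dusp2* (1.68, adjusted p = 3.85e-05) and *Dusp8* (1.64, adjusted p = 0.00315) and the inhibitor gene *Spry4* (1.36, adjusted p = 0.000268) rose. In *Glis3*-Pax8Cre, *Dusp1* (0.84), *Dusp2* (0.86) and *Dusp8* (1.16) were the 3 of 14 higher on LID (adjusted p = 0.0257, 0.0114 and 0.0375), with a list median of -0.02. Without the library *Dusp1* (0.75, adjusted p = 0.0604) and *Dusp8* (1.05, adjusted p = 0.0868) were not called, 2 of 14 were higher and the median was 0.21. Between the genotypes 2 were higher and 2 lower on ND (median 0.39), or 3 and 2 without the library (median 0.16), and 0 were higher and 2 lower on LID (median -0.26).

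Of 14 known cAMP and CREB targets, 8 were higher on LID in each genotype (median 0.83 in WT and 0.73 in *Glis3*-Pax8Cre), against 20.9% and 13.1% of all genes. In WT 1 was lower, *Rgs2* (-0.95, adjusted p = 0.00309). In *Glis3*-Pax8Cre 0 were lower, and without the library 6 were higher and 0 lower (median 0.67). The EGF receptor ligand gene *Areg* was at 6.04 ± 4.81 CPM in the WT(ND) mice, 22.7 ± 10.4 CPM in the *Glis3*-Pax8Cre(ND) mice, 67.8 ± 15.6 CPM in the WT(LID) mice and 164 ± 41.2 CPM in the *Glis3*-Pax8Cre(LID) mice, and rose on LID by 3.51 in WT (adjusted p = 0.00034) and 2.86 in *Glis3*-Pax8Cre (adjusted p = 0.00277). Between the genotypes on LID, 5 were higher in *Glis3*-Pax8Cre and 1 lower (median 0.42): *Nfil3* (1.98, adjusted p = 0.00421), the cAMP phosphodiesterase gene *Pde4d* (0.84, adjusted p = 0.00987), *Gem* (1.02, adjusted p = 0.000317) and *Irs2* (1.06, adjusted p = 0.0194) were higher, and the kinase gene *Sik1* was lower (-0.58, adjusted p = 0.0417). On ND 4 were higher and 1 lower in *Glis3*-Pax8Cre (median 0.43), or 4 and 0 without the library (median 0.41). The interaction had a median of 0.01 over the list, or -0.051 without the library.

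Of 13 tested genes that are known AP-1 targets, 5 were lower and 1 higher in *Glis3*-Pax8Cre(LID) than WT(LID) glands. In WT, 8 of the 13 were higher on LID and 0 lower (median 1.07). *Plaur*, the urokinase receptor gene, was at 2.05 ± 0.42 CPM in the WT(ND) mice, 3.75 ± 0.27 CPM in the *Glis3*-Pax8Cre(ND) mice, 22.3 ± 3.17 CPM in the WT(LID) mice and 4.16 ± 1.04 CPM in the *Glis3*-Pax8Cre(LID) mice, a rise of 3.44 in WT (adjusted p = 1.07e-08) and a genotype difference of -2.42 on LID (adjusted p = 2.68e-07). The cyclin gene *Ccnd1* rose by 1.53 in WT (adjusted p = 9.95e-08), as did *Timp1* by 1.697 (adjusted p = 1.06e-06) and *Lif* by 1.18 (adjusted p = 0.000254). In *Glis3*-Pax8Cre(LID) the list median was -0.45 relative to WT(LID), and the lower genes included *Plau* (-1.40, adjusted p = 3.55e-06), *Ccnd1* (-1.10, adjusted p = 3.65e-06) and *Hbegf* (-0.85, adjusted p = 0.000604), while *Mmp9* was the 1 higher (2.10, adjusted p = 0.0272). In *Glis3*-Pax8Cre on LID 4 were higher and 1 lower (median 0.15), or 4 and 2 without the library (median 0.14), and on ND 4 were higher and 1 lower in *Glis3*-Pax8Cre (median 0.30), or 3 and 1 (median 0.068). The interaction was called negative in 6 of the 13 with and without the library.

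**Figure D4:**
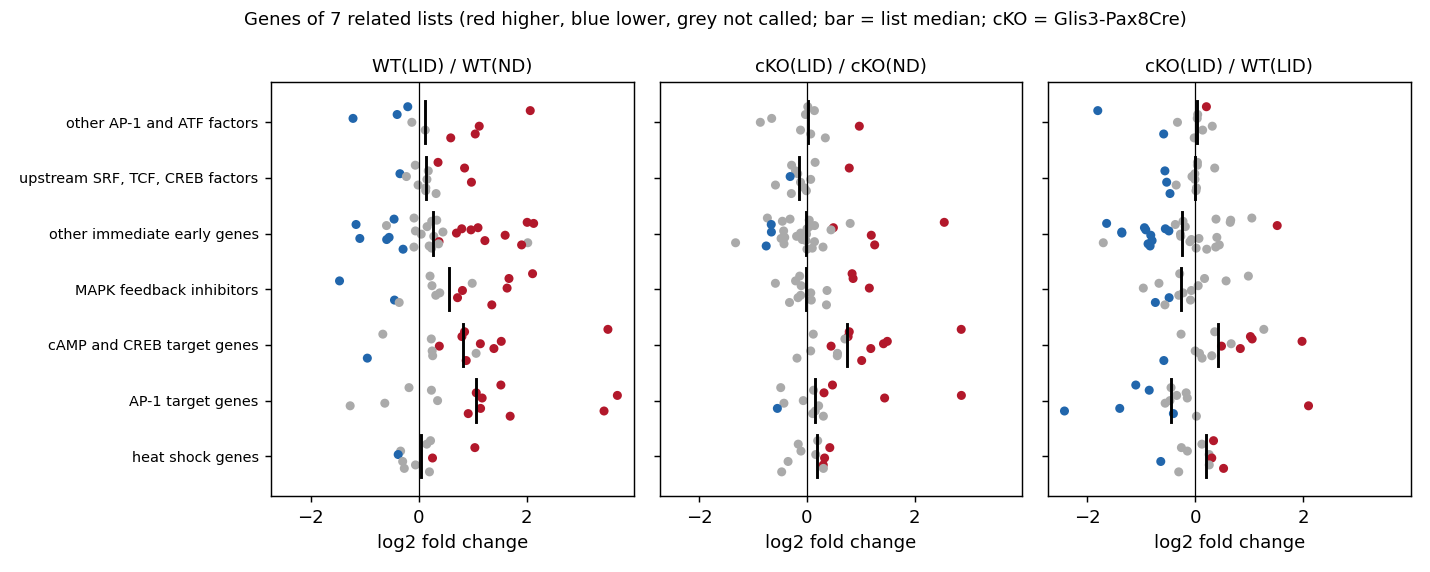
Log2 fold change (horizontal axis) of each tested gene of 7 related lists (vertical axis) in 3 comparisons, with 1 point per gene and a black bar for the list median; red is called higher, blue lower and grey not called, and cKO stands for *Glis3*-Pax8Cre. The median of the AP-1 targets is 1.07 for WT on LID and -0.45 for *Glis3*-Pax8Cre(LID) against WT(LID), and that of the cAMP and CREB targets is 0.42 in the latter.

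Other cell types moved with these comparisons, and their part in the members' changes was not tested. Of the 5 follicular cell markers, 1 was higher (*Tshr*) and 1 lower (*Tg*) in *Glis3*-Pax8Cre than WT on ND (median 0.07). Without *Glis3*-Pax8Cre(ND) replicate 4 these were 2 and 1 (median 0.20). On LID 2 were higher and 1 lower in *Glis3*-Pax8Cre than WT (median 0.24), so the lower sum does not hold for each marker. The 5 endothelial markers, none at 0 in any mouse, summed to 459 to 580 CPM in the WT(ND) mice, 598 to 832 CPM in the *Glis3*-Pax8Cre(ND) mice, 1225 to 1390 CPM in the WT(LID) mice and 552 to 712 CPM in the *Glis3*-Pax8Cre(LID) mice. All 5 were higher in WT on LID and 4 of 5 lower in *Glis3*-Pax8Cre(LID) than WT(LID) glands. In the interaction all 5 were called negative (median -1.57), also without *Glis3*-Pax8Cre(ND) replicate 4 (median -1.69). The 5 pericyte and smooth muscle markers, also all above 0, summed to 352 to 449, 457 to 638, 825 to 1253 and 424 to 639 CPM in the same order. Of these, 4 were higher in WT on LID and 4 lower in *Glis3*-Pax8Cre(LID) than WT(LID) glands. The interaction was negative in 2 of the 5, or in 3 without that library. Fibroblast markers, all 5 above 0, summed to 442 to 639, 205 to 440, 656 to 763 and 265 to 457 CPM, with 1 higher and 2 lower in WT on LID (median -0.39) and 1 lower in *Glis3*-Pax8Cre(LID) than WT(LID) glands (median -0.23). Macrophage markers, all 5 above 0, summed to 121 to 180, 203 to 246, 169 to 185 and 148 to 195 CPM. All 5 were higher in *Glis3*-Pax8Cre than WT on ND, also without *Glis3*-Pax8Cre(ND) replicate 4. On LID 2 of the 5 were higher in WT and 3 lower in *Glis3*-Pax8Cre, and 1 was higher in *Glis3*-Pax8Cre(LID) than WT(LID) glands. The interaction was negative in 2 of the 5, also without that library. Adipocyte markers, all 5 above 0, summed to 324 to 835, 159 to 352, 138 to 215 and 146 to 343 CPM, with 4 of 5 lower in WT on LID and 3 of 5 positive in the interaction. The 3 C cell markers summed to 2444 to 3911, 1034 to 2224, 1167 to 1631 and 1032 to 1811 CPM, with 2 lower in WT on LID and 2 lower in *Glis3*-Pax8Cre than WT on ND, or 3 without the library. *Calcb* was at 0 in some mice. Skeletal muscle markers, all 5 above 0, differed widely between mice of the same group, with sums of 2.45 to 340, 1.32 to 1173, 1.76 to 920 and 2.23 to 751 CPM. No comparison called any of them. The sum of 4 parathyroid markers was 5622 to 12570 CPM on ND and 366 to 3734 CPM on LID, with all 4 lower on LID in each genotype, or 2 in *Glis3*-Pax8Cre without the library. Of the 10 heat shock genes, which code for chaperones, 2 were higher and 1 lower in WT on LID (median 0.05), 3 higher in *Glis3*-Pax8Cre on LID (median 0.18), or 4 without the library, 3 higher in *Glis3*-Pax8Cre than WT on ND (median 0.10) and 3 higher and 1 lower in *Glis3*-Pax8Cre on LID against WT (median 0.19).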

How the data were processed

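RNA-Seq was done on thyroid glands of 16 mice. Per the paper's methods and the labels, the authors discarded read pairs whose mean base quality was 20 or lower, aligned the others with STAR (2.5) to the mm10 build, and counted pairs per RefSeq gene with featureCounts (1.5.0-p1) without regard to strand. The deposited table holds these raw counts, with no normalization. Sequencing used NextSeq or NovaSeq instruments, and which library was read on which is not given in the sources used here.

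Tests were run with edgeR 4.0.16 under R 4.3.3 (TMM, filterByExpr, robust quasi-likelihood fit, 1 mean per group over all 16 mice, 16630 genes). CPM values use TMM-scaled library sizes, and SE is the log2 fold change divided by the square root of F. Per-kb levels use exon lengths from GENCODE vM21. Members, gene lists and tests were chosen with earlier results of these data known. All members are named, and from each list at most 4 called genes per direction with the largest change and a mean of at least 1 CPM. Genes of 1 comparison may be named again in another for contrast. Alternatives were DESeq2 1.42.0, other scalings and filters, fewer mice, a replicate block and each mouse left out. The fit was tested on simulated counts, with the spread typical of each gene's level and changes placed in WT(LID) only. That test does not cover genes that vary as much as most members. The replicate block treated equal numbers as pairs in all 16 mice, and a further fit did so in the 8 *Glis3*-Pax8Cre mice alone. Between the *Glis3*-Pax8Cre groups, deviations from the group means correlated at 0.21, 0.29, 0.63 and 0.65 over genes for replicates 1 to 4. Replicate 2 of *Glis3*-Pax8Cre(LID) correlated more with another number (0.36), and replicate 1 nearly as much (0.18). This pairing comes from the counts and not from the labels. No per-sample column was left unused. One marker gene of the list for follicular cells is not reported here.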

Additional observations from a re-analysis of the deposited data

Results flagged for a closer look

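Among 36 groups of 4 mice (9 tested members in 4 groups), 1 held a mouse far from the others: *Nr4a3* in WT(LID) replicate 1 was at 16.7 CPM, with the next mouse at 34.9 CPM. Chance alone picks out about 1 group in 20 by this gap rule. The rise of *Nr4a3* on LID in WT did not rest on that mouse, being called with each mouse left out.

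The change of *Egr1* on LID differed between the genotypes, with an interaction of 1.94 on the log2 scale (adjusted p = 0.025), negative in WT and positive in *Glis3*-Pax8Cre. Over the alternatives it was not called in 3 of the fits that left out 1 mouse.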

How the results depend on the processing

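Of the members' log2 fold changes recomputed under the alternatives, 1034 were counted as unchanged in direction and side of the threshold. With the same direction, 18 gained a call and 13 lost one, and 10 changed direction. Those that changed direction are counted only there. They include *Egr2* in *Glis3*-Pax8Cre on LID and between the genotypes on ND, which also gained a call without *Glis3*-Pax8Cre(ND) replicate 4. Causes were not tested. DESeq2 gave no p for *Egr2*, which is left out there. The stricter rule called 0 members lower in WT on LID, 0 higher in *Glis3*-Pax8Cre on LID, 0 lower in *Glis3*-Pax8Cre(LID) against WT(LID) and 0 with a positive interaction. With library size alone, *Jun* on LID between the genotypes was at -0.63 and not called, and *Junb* there turned to 0.041. That scaling also shifted the median change of all genes, from -0.03 to -0.18 in WT on LID, -0.03 to -0.17 in *Glis3*-Pax8Cre on LID, 0.02 to 0.14 between the genotypes on ND and 0.01 to 0.16 on LID. Genes called higher and lower then numbered 2434 and 5203 (against 3476 and 3467), 1297 and 3385 (2184 and 2039), 2722 and 935 (1714 and 1538), and 4121 and 1841 (2471 and 2557). Fits of only the 8 mice of a comparison called 0 members higher in *Glis3*-Pax8Cre on LID (*Nr4a2* at 0.47) and called *Egr2* in WT on LID (0.79). DESeq2 called 2 members with a negative interaction, *Jun* (-1.004) and *Nr4a2* (-0.47).

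With the replicate block, which pairs mice only by number outside the *Glis3*-Pax8Cre groups, 2 members were called higher in *Glis3*-Pax8Cre on LID (with *Egr1* at 0.86), 1 had a negative interaction (*Jun*, -1.02) and *Junb* was called in WT on LID (0.28, adjusted p = 0.04). The block changed no other call. The block in the 8 *Glis3*-Pax8Cre mice alone called 1 member lower, *Jun* (-0.54), and gave *Egr1* 0.91 (called), *Nr4a2* 0.49 (not called) and *Egr2* 0.25 (reversed). Outside the *Glis3*-Pax8Cre groups, deviations of mice with the same number correlated between -0.52 and 0.14. Both there and between the *Glis3*-Pax8Cre groups, not every mouse was nearest to its own number.

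Leaving out 1 mouse moved the number of members called in WT on LID between 3 and 4 (higher) and between 0 and 1 (lower). In *Glis3*-Pax8Cre on LID the number called higher moved between 1 and 4. Between the genotypes the number called lower moved between 0 and 1 on ND and between 2 and 3 on LID. For the interaction it moved between 0 and 1 in each direction. In WT on LID, *Jun* ranged from 0.36 to 0.73, *Egr1* from -1.28 to -0.89 and *Egr2* from 0.64 to 0.95. In *Glis3*-Pax8Cre on LID, *Fosb* ranged from 0.62 to 1.36, *Egr1* from 0.53 to 1.21 and *Egr2* from -0.85 to 1.10. Between the genotypes on ND, *Fosb* ranged from -0.093 to 0.77, *Junb* from -0.067 to 0.10, *Egr2* from -0.91 to 1.04 and *Nr4a1* from -0.64 to 0.025, and on LID *Jun* from -0.97 to -0.65 and *Nr4a3* from -0.37 to 0.010. For the interaction, *Jun* ranged from -1.25 to -0.86, *Egr1* from 1.67 to 2.35, *Egr2* from -1.64 to 0.30, *Nr4a1* from -1.44 to -0.79 and *Nr4a2* from -0.60 to -0.37. The mice behind each change are named beside the gene in the text. Depth limits *Fosl1*, with at most 11 counts in a mouse, and *Fosb*, with as few as 12.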
